A study of Mus musculus with 6 samples.

Results

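The Toll-like receptors are a family of pattern-recognition receptors, and 10 of their genes (Tlr1 to Tlr9 and Tlr13) are described here in adipocytes of mice with and without adipocyte PU.1. They were taken as a family, by gene symbol and without a threshold on their values but with earlier results of these data known, and are 10 of the 35122 genes in the deposited count table, and all 10 had enough counts to be tested. Epididymal fat was digested with collagenase, and RNA was sequenced from the adipocytes that floated, with 1 library per mouse from 3 control and 3 aPU.1KO mice. Control mice were male PU.1 fl/fl animals on a C57BL/6 background and a chow diet, in which exon 5 of Spi1, the gene of PU.1, was flanked by loxP sites but present. The aPU.1KO mice were their AdipoqCre PU.1 fl/fl littermates, which carried the same floxed alleles and Cre driven by the adiponectin promoter. No group carried Cre without the floxed alleles, so the effect of Cre itself and that of losing PU.1 cannot be told apart. By the labels the mice were 10 to 11 months old, which is lower than the age in the study's text. Mice 1 to 3 of each group are named in the order of deposition, and the labels state no pairing across groups. Animal numbers in the sample titles lie close for mice of the same number in both groups. Whether such mice were littermates is not given, and no paired test was run. The labels do not tie these libraries to litters or fat pads beyond 1 mouse each.

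Toll-like receptors bind conserved molecules of microbes and signal through a cytoplasmic TIR domain. Tlr1, Tlr2, Tlr4, Tlr5 and Tlr6 act mainly at the cell surface, where Tlr2 pairs with Tlr1 or Tlr6 to bind bacterial lipopeptides, Tlr4 binds lipopolysaccharide and Tlr5 binds flagellin. Tlr3, Tlr7, Tlr8, Tlr9 and Tlr13 sit in endosomes and sense nucleic acids, with double-stranded RNA the ligand of Tlr3, single-stranded RNA of Tlr7, unmethylated CpG DNA of Tlr9 and bacterial ribosomal RNA of Tlr13. Macrophages use most members of the family. In adipose tissue Tlr4 is best known for its part in the inflammation of obesity. PU.1 is an ETS-family transcription factor that is required for the myeloid lineage, and it binds purine-rich DNA around a GGAA core.

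Total counts were 69283842, 22770714 and 23392407 in control mice 1, 2 and 3 and between 20550252 and 24310144 in the aPU.1KO mice. A fold change compares normalized read counts (CPM, scaled by TMM) in aPU.1KO over control mice on the log2 scale, and p-values come from the quasi-likelihood test of edgeR, adjusted over 13925 genes by Benjamini-Hochberg, unless another test is named. Spi1 itself had 24.3, 6.35 and 26.7 CPM in the control mice and 3.20, 1.22 and 4.17 CPM in the aPU.1KO mice, a log2 fold change of -2.75 (standard error, SE, 0.64, edgeR adjusted p = 0.0788). These counts cover all exons of Spi1. Control mouse 2 stood apart from the other controls in Spi1 and in macrophage markers. A list of 14 macrophage markers summed to 1507, 489 and 1447 CPM in control mice 1, 2 and 3 and to 338, 259.5 and 323.6 CPM in the aPU.1KO mice. Of the 14 genes, 12 were lower in aPU.1KO mice without overlap, beside 15.5% of all genes tested. Cd163 and Mertk overlapped between the groups, with log2 fold changes of 0.29 and 0.06. None of the 14 was at 3 counts or fewer in every library. Mrc1, the mannose receptor, was the only gene of all lists used here that passed the adjusted threshold with edgeR (log2 fold change -1.70, adjusted p = 0.0389). A list of 8 fibroblast and preadipocyte markers was also lower, at 1581 to 2328 CPM against 901.2 to 1238 CPM. The 10 adipocyte markers summed to 26700 to 29120 CPM in control mice and to 32370 to 38920 CPM in aPU.1KO mice, with Fabp4 the largest part. Of these 10 genes, 9 were higher in aPU.1KO mice without overlap, beside 2320 of the 13925 genes tested. Lep, the gene of leptin, was lower without overlap (4751 ± 248.1 against 2790 ± 1194 CPM, SD, n = 3). Neutrophil markers summed to 19.2 to 39.3 CPM and 11.7 to 18.3 CPM, almost all of it S100a8 (25.5 ± 8.97 and 12.8 ± 3.52 CPM, SD, n = 3), while Csf3r and Cxcr2 overlapped and Ly6g and Retnlg were at 3 counts or fewer in every library. The sums were 2.10 to 5.59 CPM and 1.27 to 1.85 CPM for T and NK cell markers. Sums of B cell, dendritic cell, endothelial and mesothelial markers overlapped between the groups. In RNA from a mixed fraction, fewer cells of a type and less RNA per cell cannot be told apart, and the part of these marker differences in the receptor results was not tested.

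The promoter sequences of the receptors are shown first, because PU.1 binds purine-rich motifs. RefSeq start sites (GRCm38.p6) were matched for 8 of the 10 members, all but Tlr4 and Tlr7, with 10 start sites in all because Tlr1 and Tlr6 have 2 each. A window of 250 bases before to 50 after each start site was searched on both strands for GAGGAA, a purine-rich form of the GGAA core and narrower than it. At least 1 match was found in 4 of the 8 genes, Tlr1, Tlr8, Tlr9 and Tlr13, beside 31.3% of the 27025 genes with a window. The 250 bases before the start site of those 4 genes are printed 5′ to 3′ on the strand of the gene, with GAGGAA or its reverse complement TTCCTC in capitals.
Tlr1 (chr5:64933559-64933808, minus strand): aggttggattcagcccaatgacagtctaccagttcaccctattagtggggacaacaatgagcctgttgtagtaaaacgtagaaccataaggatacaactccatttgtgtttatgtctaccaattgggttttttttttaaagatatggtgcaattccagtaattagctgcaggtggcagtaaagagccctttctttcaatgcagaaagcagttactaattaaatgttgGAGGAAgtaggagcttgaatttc
Tlr8 (chrX:167264330-167264579, minus strand): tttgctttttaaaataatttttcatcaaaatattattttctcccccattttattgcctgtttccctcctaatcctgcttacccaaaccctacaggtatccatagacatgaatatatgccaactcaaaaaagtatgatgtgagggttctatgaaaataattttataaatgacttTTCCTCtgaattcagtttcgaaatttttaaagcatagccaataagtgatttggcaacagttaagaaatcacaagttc
Tlr9 (chr9:106222348-106222597, plus strand): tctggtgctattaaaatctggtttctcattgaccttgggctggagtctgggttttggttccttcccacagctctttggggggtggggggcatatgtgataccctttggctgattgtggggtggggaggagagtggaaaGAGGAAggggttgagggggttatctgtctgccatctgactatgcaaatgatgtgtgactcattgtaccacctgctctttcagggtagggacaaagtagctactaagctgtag
Tlr13 (chrX:106143025-106143274, plus strand): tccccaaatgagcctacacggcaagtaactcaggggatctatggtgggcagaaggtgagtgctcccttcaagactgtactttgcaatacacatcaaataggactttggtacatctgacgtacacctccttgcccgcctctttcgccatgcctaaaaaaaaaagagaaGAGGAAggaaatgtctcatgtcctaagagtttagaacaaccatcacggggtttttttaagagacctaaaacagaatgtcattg
The match lay at positions -23 to -18 from the start site in Tlr1, on the strand of the gene. In Tlr13 it lay at -83 to -78 on the same strand, and in Tlr8 at -77 to -72 on the opposite strand. Tlr9 held a match at -112 to -107 and another on the opposite strand at 13 to 18, counted from 1 at the start site and beyond the bases printed. No GAGGAA was found in the windows of Tlr2, Tlr3, Tlr5 and Tlr6. An interferon-response motif, GAAA followed after any 2 bases by another GAAA, was found only in Tlr6, in overlapping matches within -116 to -101 of its first start site, beside 3.99% of genes with a window. The letters TATAAA were found in Tlr8 and at the second start site of Tlr6, beside 15.7% of genes. In Tlr8 the TATAAA matches on the 2 strands overlap. A match of letters is a description and no evidence of binding.

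Fold changes of the 10 receptors split into a larger and a smaller group. Tlr1, Tlr6, Tlr7, Tlr8, Tlr9 and Tlr13 were lower in aPU.1KO adipocytes by 2.63- to 8.41-fold, whereas Tlr2, Tlr3, Tlr4 and Tlr5 were lower by 1.18- to 1.38-fold. No member passed an adjusted p of 0.05 with edgeR, which called 0.237% of the genes tested. At an unadjusted p under 0.05 the same test called 6 of the 10 members lower, beside 13.7% of all genes lower and 11.9% higher. DESeq2, the test named in the study's methods, called those 6 lower at an adjusted p under 0.05, beside 8.73% of genes lower and 4.69% higher. In 8 members the groups did not overlap and the aPU.1KO mice were lower, beside 15.5% of all genes. The median log2 fold change was -1.46 over the members and 0.01 over all genes tested. With edgeR and without control mouse 2, Tlr1, Tlr6, Tlr7, Tlr8 and Tlr13 passed the adjusted threshold, beside 8.34% of the 14306 genes tested in that fit.

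**Figure D1:**
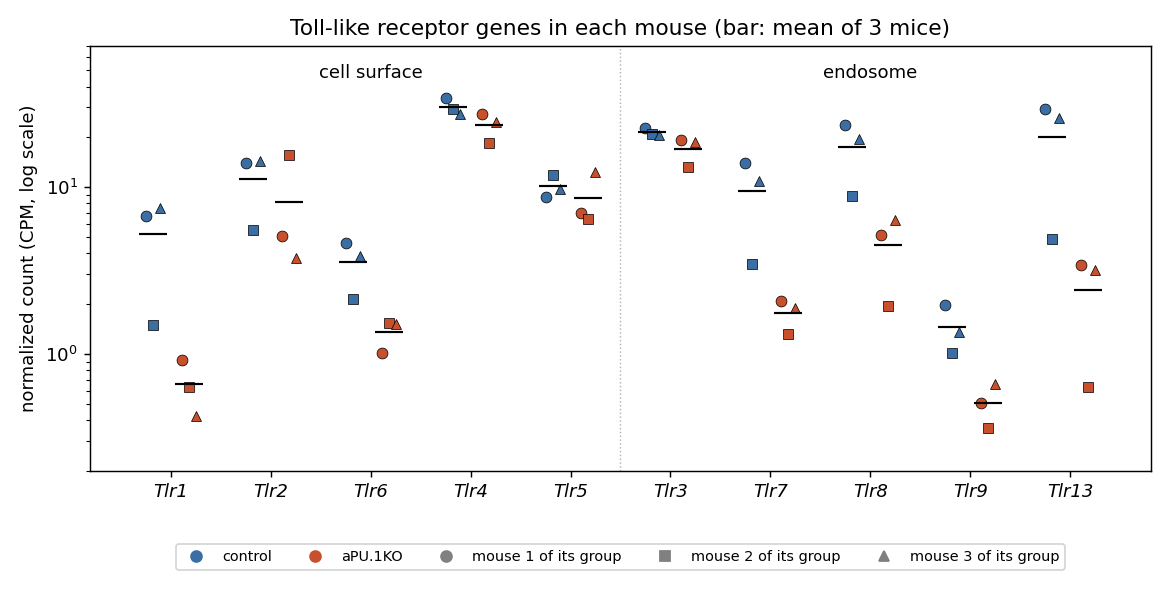
Normalized count (CPM, log axis) of each Toll-like receptor gene in each of the 6 mice, with control mice in blue, aPU.1KO mice in orange, marker shape giving the mouse number within its group and a bar at the mean of 3 mice. Control mouse 2 lies nearest to the aPU.1KO mice in Tlr1, Tlr7, Tlr8 and Tlr13, and aPU.1KO mouse 2 is the highest of all 6 mice in Tlr2.

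**Figure D2:**
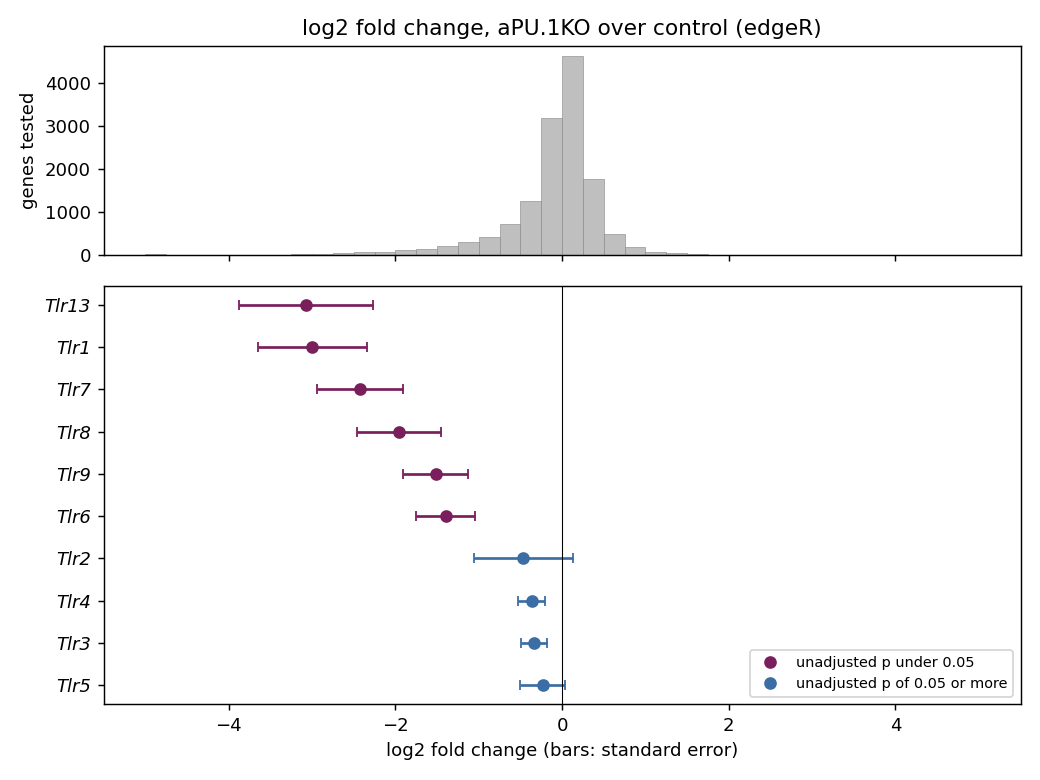
Log2 fold change (aPU.1KO over control, edgeR) of each receptor with its standard error as a bar, under a histogram of the log2 fold changes of the 13925 genes tested. All 10 receptors lie left of 0, and the 6 in purple had an unadjusted p under 0.05.

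Among the lipopeptide receptors, Tlr1 differed most. Tlr1 (chromosome 5, 64924679 to 64933563, GRCm38, minus strand) had 6.73, 1.49 and 7.46 CPM in the control mice and 0.915, 0.633 and 0.426 CPM in the aPU.1KO mice. The groups did not overlap, with control mouse 2 lowest among the controls. Its log2 fold change was -3.00 (SE 0.65, edgeR adjusted p = 0.0783, DESeq2 adjusted p = 0.000146). Of the genes tested, 0.567% had a lower log2 fold change. Tlr6, its neighbour on the same strand (64952031 to 64960097), had 4.64, 2.15 and 3.89 CPM in the control mice and 1.02, 1.54 and 1.52 CPM in the aPU.1KO mice. All aPU.1KO mice were below all control mice, with a log2 fold change of -1.40 (SE 0.35, edgeR adjusted p = 0.0868, DESeq2 adjusted p = 0.00866). The transcripts of Tlr1 and Tlr6 are near-identical in part: 20.0% of the 31-base words of Tlr1 and 16.6% of those of Tlr6 occur in other genes, mostly in each other. Reads from the shared stretch had to be divided between them, so that their separate values are uncertain to that extent.

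Tlr2 (chromosome 3, 83836272 to 83841767), the shared partner of Tlr1 and Tlr6, did not separate the groups. It had 13.9, 5.52 and 14.2 CPM in the control mice and 5.08, 15.6 and 3.74 CPM in the aPU.1KO mice. The groups overlapped because aPU.1KO mouse 2 was above every control mouse, while aPU.1KO mice 1 and 3 were below all of them. Its log2 fold change was -0.47 (SE 0.59, edgeR adjusted p = 0.656). Without aPU.1KO mouse 2 the value was -1.36 (edgeR unadjusted p = 0.0262, adjusted p = 0.159), and without aPU.1KO mouse 3 it was -0.12. The difference of Tlr2 therefore rests on single mice.

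Tlr4 and Tlr5 differed little. Tlr4 (chromosome 4, 66827584 to 66930284) had 33.95, 29.3 and 27.25 CPM in the control mice and 27.24, 18.4 and 24.6 CPM in the aPU.1KO mice. The groups touched without overlapping, and the log2 fold change was -0.37 (SE 0.16, edgeR adjusted p = 0.212). It ran from -0.50 without aPU.1KO mouse 1 to -0.22 without aPU.1KO mouse 2. Tlr5 (chromosome 1, 182954788 to 182976044) had 8.73, 11.8 and 9.72 CPM in the control mice and 6.96, 6.46 and 12.3 CPM in the aPU.1KO mice. Here aPU.1KO mouse 3 was the highest of all 6, and the log2 fold change was -0.23 (SE 0.27, edgeR adjusted p = 0.625). With a mouse left out it ran from -0.58 without aPU.1KO mouse 3 (edgeR adjusted p = 0.123) to -0.066 without aPU.1KO mouse 2 (edgeR adjusted p = 0.905), and it was -0.11 without aPU.1KO mouse 1 or control mouse 2.

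Of the 5 endosomal receptors, 4 were 2.86- to 8.41-fold lower in aPU.1KO adipocytes, and Tlr3 was 1.26-fold lower. Tlr13 (X chromosome, 106143204 to 106160493) had 29.4, 4.90 and 25.7 CPM in the control mice and 3.41, 0.633 and 3.17 CPM in the aPU.1KO mice. It varied most among the controls, where mouse 2 was closer to the aPU.1KO mice than to the other controls, and the groups still did not overlap. Its log2 fold change was -3.07 (SE 0.80, edgeR adjusted p = 0.0909, DESeq2 adjusted p = 0.0148), the lowest of the family. Tlr7 (X chromosome, 167304929 to 167330558) had 13.9, 3.46 and 10.9 CPM in the control mice and 2.08, 1.31 and 1.90 CPM in the aPU.1KO mice. All aPU.1KO mice were lower, with a log2 fold change of -2.43 (SE 0.52, edgeR adjusted p = 0.0775, DESeq2 adjusted p = 0.000106).

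Tlr8 lies beside Tlr7 on the X chromosome (167242696 to 167264329) on the same strand, and is its close relative. It had 23.6, 8.80 and 19.5 CPM in the control mice and 5.18, 1.94 and 6.30 CPM in the aPU.1KO mice. The groups did not overlap, and the log2 fold change was -1.96 (SE 0.50, edgeR adjusted p = 0.0900, DESeq2 adjusted p = 0.00151). Tlr9 (chromosome 9, 106222598 to 106226883) was the weakest member, at 1.97, 1.01 and 1.35 CPM in the control mice and 0.508, 0.362 and 0.663 CPM in the aPU.1KO mice. The latter values rest on only 10, 8 and 14 counts, against 143, 23 and 34 in the control mice. Its log2 fold change was -1.52 (SE 0.39, edgeR adjusted p = 0.0894, DESeq2 adjusted p = 0.0306).

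Tlr3 (chromosome 8, 45395665 to 45411080) was far more even across the mice than the other endosomal receptors. It had 22.7, 20.7 and 20.6 CPM in the control mice, and control mouse 2 did not stand apart. The aPU.1KO mice had 19.01, 13.1 and 18.7 CPM, all below the controls, with a log2 fold change of -0.34 (SE 0.16, edgeR adjusted p = 0.230). That value was -0.18 without aPU.1KO mouse 2 and -0.44 without aPU.1KO mouse 1. An antisense transcript, Gm45542, overlaps 381 bases of Tlr3 exons, and 6.10% of the 31-base words of Tlr3 occur in other genes.

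Levels of different receptors were compared as CPM per kilobase of exon, using all annotated exons of a gene. They are levels of the whole floating fraction, which also held macrophage marker RNA, and were not assigned to a cell type. In the control mice the highest mean levels were those of Tlr4 (5.43 ± 0.62, SD, n = 3), Tlr8 (4.83 ± 2.14), Tlr13 (4.65 ± 3.07) and Tlr3 (4.10 ± 0.23). Tlr2, Tlr7, Tlr5, Tlr1 and Tlr6 followed at 3.72 ± 1.64, 2.30 ± 1.32, 2.11 ± 0.33, 1.56 ± 0.97 and 0.95 ± 0.34, and Tlr9 was lowest at 0.41 ± 0.14. Neighbours in this order overlapped over the 3 mice in each case except that Tlr6 was above Tlr9 in all of them without overlap. In control mice 1 and 3, Tlr13 (6.82 and 5.98) and Tlr8 (6.59 and 5.44) were above Tlr4 (6.11 and 4.90). In the aPU.1KO mice the order was Tlr4 (4.22 ± 0.81), Tlr3 (3.25 ± 0.64), Tlr2 (2.70 ± 2.15), Tlr5 (1.79 ± 0.67) and Tlr8 (1.25 ± 0.63), with Tlr13, Tlr7, Tlr6, Tlr1 and Tlr9 between 0.56 and 0.15. There all neighbours in the order overlapped across mice. The mean of Tlr2 rests largely on aPU.1KO mouse 2, with 1.69, 5.17 and 1.24 in aPU.1KO mice 1, 2 and 3. Within each of the 3 mice of a group, Tlr2 was above Tlr7 in the controls, and Tlr4 was above Tlr3, Tlr5 above Tlr8 and Tlr8 above Tlr13 in the aPU.1KO mice. Tlr13 went from the third to the sixth place and Tlr8 from the second to the fifth.

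The summed level of the 10 receptors was 37.6, 19.3 and 33.4 CPM per kilobase in the control mice and 15.1, 14.1 and 15.5 in the aPU.1KO mice. As a share of that sum, Tlr13 made up 18.2%, 5.90% and 17.9% in the control mice and 5.23%, 1.05% and 4.76% in the aPU.1KO mice. The share of Tlr8 was 15.5% ± 2.51 (SD, n = 3) in control and 8.25% ± 3.91 in aPU.1KO adipocytes. Tlr4 and Tlr3 took larger mean shares in aPU.1KO adipocytes, 28.2% ± 4.42 against 19.4% ± 6.88 for Tlr4 and 21.7% ± 3.35 against 14.7% ± 5.13 for Tlr3. Control mouse 2, at 27.3% and 20.6%, lay within the aPU.1KO range for both. In aPU.1KO mouse 2 a single receptor, Tlr2, made up 36.8%, against 8.01% to 14.2% in the other 5 mice. Shares add to 100%, so that a lower level of some members raises the shares of the rest.

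**Figure D3:**
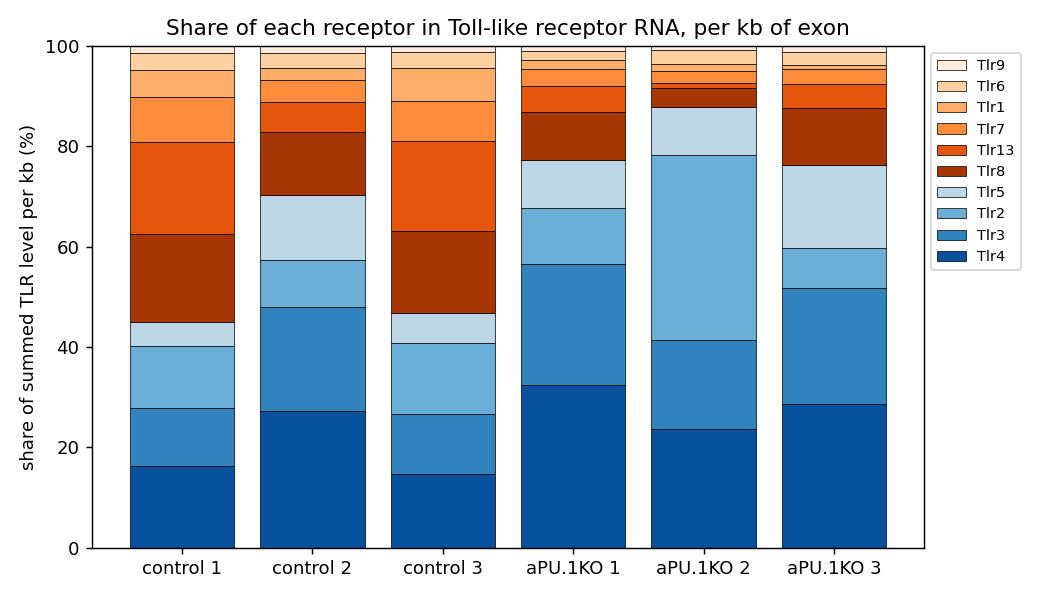
Share (%) of each receptor in the summed Toll-like receptor level per kilobase of exon, 1 stacked bar per mouse, with Tlr4, Tlr3, Tlr2 and Tlr5 in blues and the other 6 in oranges. The orange part is smallest in the aPU.1KO mice, and control mouse 2 lies between them and control mice 1 and 3.

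Because the shares move together, each receptor was also set against Tlr4 within each mouse, a comparison chosen after the values were seen. The log2 ratio of Tlr3 to Tlr4 lay between -0.58 and -0.40 in all 6 mice, and its group means differed by 0.02 (exact permutation p = 0.7). Relative to Tlr4, Tlr13 was lower by 2.65 on the log2 scale, Tlr1 by 2.37, Tlr7 by 1.84, Tlr8 by 1.62 and Tlr9 by 1.11, each without overlap between the groups. An exact permutation test of 3 against 3 mice cannot give a two-sided p below 0.1, which was the value of each of these 5, or 0.18 adjusted over the 9 ratios. Tlr6 was lower by 0.97 with overlap (exact permutation p = 0.2). Tlr2 and Tlr5 differed from Tlr4 by -0.25 and 0.09 between the groups (exact permutation p = 0.8 and 1).

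Each receptor was then set against the summed CPM of the 14 macrophage markers in the same mouse. Relative to that sum, Tlr4 was higher in aPU.1KO mice by 1.37 on the log2 scale, Tlr3 by 1.39 and Tlr2 by 1.12, each without overlap (exact permutation p = 0.1, 0.2 adjusted over 10). The value of Tlr2 rests on aPU.1KO mouse 2: without that mouse it was 0.39, and the nearest mice of the groups lay at -6.43 and -6.47. Without control mouse 2 the differences of Tlr3 and Tlr4 were 1.90 and 1.88. Tlr5 was 1.46 higher with overlap. Tlr1 and Tlr7 were lower relative to the macrophage markers by 1.00 and 0.48 without overlap (exact permutation p = 0.1). Tlr13 differed by -1.28 with overlap (exact permutation p = 0.2), and by -0.61 without aPU.1KO mouse 2. Tlr6, Tlr8 and Tlr9 differed by 0.40, -0.26 and 0.26, and their groups overlapped. Single mice decided these values. That of Tlr6 ran from 0.18 without aPU.1KO mouse 2 to 0.67 without aPU.1KO mouse 1, that of Tlr8 from -0.54 without aPU.1KO mouse 3 to 0.15 without aPU.1KO mouse 2, and that of Tlr9 from -0.013 without control mouse 3 to 0.56 without control mouse 2. Control mouse 2 was the control nearest to the aPU.1KO mice in every ratio without overlap, those of Tlr1, Tlr2, Tlr3, Tlr4 and Tlr7. These ratios use lists and receptors measured in the same libraries, and no ratio passed the adjusted threshold.

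**Figure D4:**
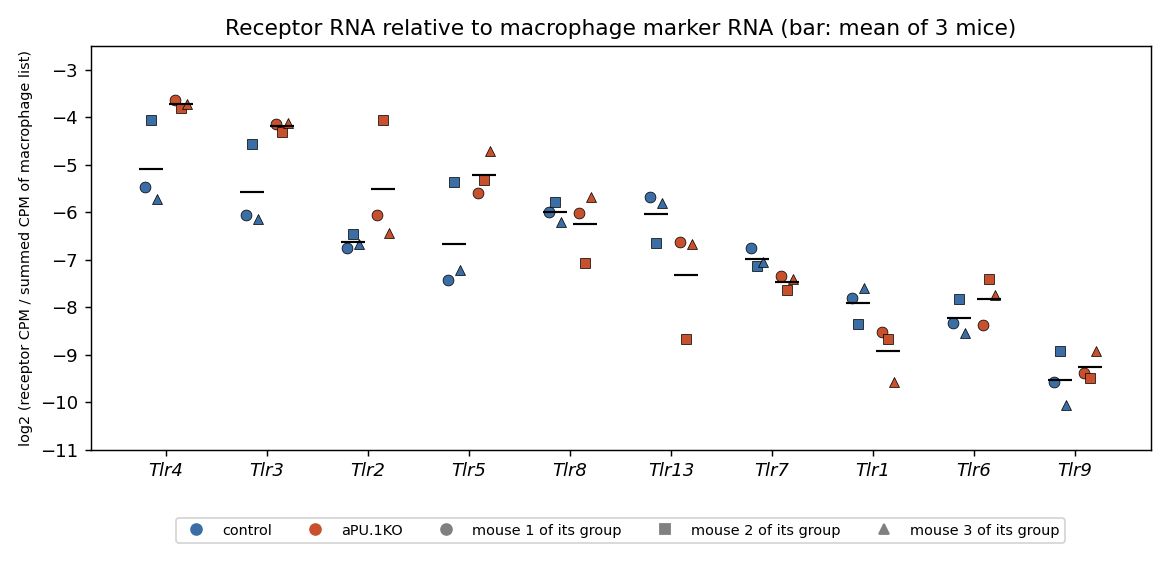
Log2 ratio of each receptor's CPM to the summed CPM of 14 macrophage markers in each mouse (control blue, aPU.1KO orange, bar at the mean of 3 mice). Tlr4, Tlr3 and Tlr2 lie higher in all aPU.1KO mice than in all control mice, Tlr1 and Tlr7 lie lower, and the other 5 overlap.

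The wider pathway was followed in 70 genes grouped by role, of which 67 were tested. At an unadjusted p under 0.05 edgeR called 16 lower (beside 13.7% of all genes) and 1 higher (beside 11.9%), and 0 passed the adjusted threshold. The count of 0 became 13 without control mouse 2 (beside 8.34% of all genes in that fit), and the 1 higher gene became 12 without aPU.1KO mouse 3 (beside 13.3%). DESeq2 called 14 lower (beside 8.73% of all genes) and 0 higher (beside 4.69%) at an adjusted p under 0.05. The median log2 fold change was -0.09, against 0.01 over all genes. Tlr11 and Tlr12, the remaining mouse receptors, and the adaptor Sarm1 had too few counts to test. The macrophage marker sums given above moved with the lower genes of these lists as well, and their part was not tested.

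**Figure D5:**
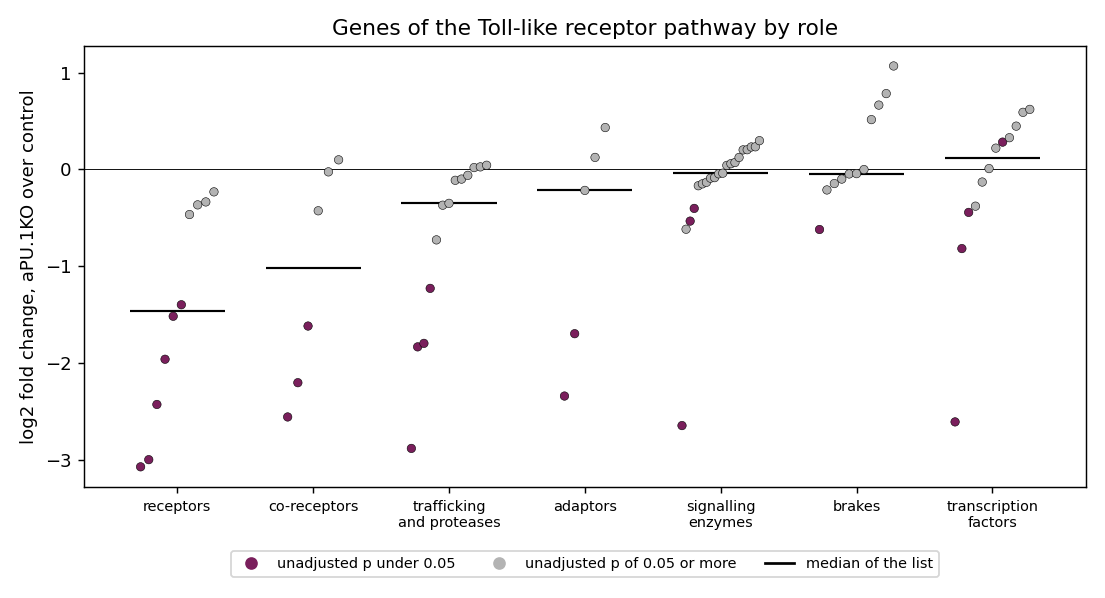
Log2 fold change (aPU.1KO over control, edgeR) of each tested gene of the Toll-like receptor pathway by role, with genes at an unadjusted p under 0.05 in purple and a bar at the median of each list. The receptors have the lowest median, -1.46, and the lists of signalling enzymes, brakes and transcription factors have medians of -0.04, -0.04 and 0.11.

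Of the 6 co-receptors, 3 were called lower at an unadjusted p under 0.05, and the 13.7% of all genes given above is the background of this and the following lists. Cd180 and Ly86 form a receptor complex related to that of Tlr4, and both were lower without overlap. Ly86 had 13.7, 4.38 and 13.2 CPM in the control mice and 2.14, 2.40 and 2.27 CPM in the aPU.1KO mice, a log2 fold change of -2.20 (SE 0.43, edgeR adjusted p = 0.0760). Cd180 had a log2 fold change of -2.56 (SE 0.78, edgeR adjusted p = 0.112). Cd14, which hands lipopolysaccharide to Tlr4, had 33.2, 8.89 and 31.2 CPM in the control mice and 7.88, 11.2 and 4.93 CPM in the aPU.1KO mice. Its groups overlapped, and the log2 fold change was -1.62 (SE 0.52, edgeR adjusted p = 0.121, DESeq2 adjusted p = 0.0123). Ly96, or MD-2, the obligate partner of Tlr4, was even, at 3.23 ± 1.26 CPM (SD, n = 3) against 3.19 ± 0.40 CPM in aPU.1KO adipocytes (log2 fold change -0.03, SE 0.33, from -0.30 without control mouse 2 to 0.21 without control mouse 3). Cd36, a fatty acid transporter that also assists Tlr2 and is abundant in adipocytes, was at 5331 ± 186 and 5708 ± 371 CPM (log2 fold change 0.10, edgeR adjusted p = 0.680, and 0.034 without aPU.1KO mouse 1).

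Among 13 genes of receptor trafficking and processing, 4 were called lower at an unadjusted p under 0.05. Unc93b1, which carries the nucleic acid-sensing receptors to endosomes, had 81.5, 39.8 and 81.3 CPM in the control mice and 26.3, 29.0 and 31.2 CPM in the aPU.1KO mice. The groups did not overlap, with a log2 fold change of -1.23 (SE 0.27, edgeR adjusted p = 0.0783, DESeq2 adjusted p = 0.000406). The proteases Ctss, Ctsk and Lgmn, which cut the ectodomains of endosomal receptors, had log2 fold changes of -2.88, -1.83 and -1.80 (edgeR adjusted p = 0.0911, 0.0909 and 0.0856). Ctsb and Ctsl, 2 other proteases of the list, overlapped between the groups, at -0.35 and -0.37 (edgeR adjusted p = 0.2595 and 0.2143). Chaperones of the receptors had log2 fold changes near 0, such as Hsp90b1, or gp96, at 0.04 (SE 0.10, from -0.028 without aPU.1KO mouse 2 to 0.10 without aPU.1KO mouse 3) and Cnpy3 at 0.02 (SE 0.07).

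Of the 5 adaptors tested, 2 were called lower at an unadjusted p under 0.05. Myd88, the adaptor shared by all of these receptors except Tlr3, was at 24.3 ± 1.497 CPM (SD, n = 3) in control mice against 32.8 ± 14.1 CPM in aPU.1KO mice, with 48.0 CPM in aPU.1KO mouse 2 (log2 fold change 0.43, edgeR adjusted p = 0.383). Its log2 fold change was 0.049 without that mouse and 0.69 without aPU.1KO mouse 3 (edgeR adjusted p = 0.893 and 0.109). Tirap and Ticam1, or TRIF, the adaptor of Tlr3, had log2 fold changes of 0.12 and -0.22 (edgeR adjusted p = 0.579 and 0.365). Tirap ran from 0.0079 without aPU.1KO mouse 3 to 0.20 without aPU.1KO mouse 2, and Ticam1 from -0.32 without control mouse 2 to -0.14 without control mouse 3. Pik3ap1, or BCAP, which links the receptors to phosphoinositide 3-kinase, had 32.3, 9.32 and 28.2 CPM in the control mice and 5.64, 2.31 and 5.92 CPM in the aPU.1KO mice. Its groups did not overlap (log2 fold change -2.34, SE 0.54, edgeR adjusted p = 0.0786, DESeq2 adjusted p = 0.000156). Ticam2, or TRAM, the bridge from Tlr4 to TRIF, was also lower without overlap, by 1.70 on the log2 scale (edgeR adjusted p = 0.0796). Ticam2 shares 838 bases of exon on the same strand with Tmed7, so that its counts could not be fully separated from those of that gene.

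The signalling enzymes, were called lower at an unadjusted p under 0.05 in 3 of 20 cases, close to the 13.7% of all genes. Irak1, Irak2 and Traf6 had log2 fold changes of 0.12, -0.05 and 0.07 with standard errors of 0.09, 0.16 and 0.10. With a mouse left out Irak1 ran from 0.057 (without control mouse 3) to 0.19 (without control mouse 2), Irak2 from -0.15 (without aPU.1KO mouse 1) to 0.11 (without aPU.1KO mouse 2) and Traf6 from 0.018 (without aPU.1KO mouse 2) to 0.14 (without aPU.1KO mouse 3). Irak4, the first kinase recruited by Myd88, had 14.8, 13.9 and 15.4 CPM in the control mice and 10.9, 8.27 and 11.3 CPM in the aPU.1KO mice, a log2 fold change of -0.53 (SE 0.15, edgeR adjusted p = 0.0980, DESeq2 adjusted p = 0.0202). Control mouse 2 did not stand apart in Irak4. Btk, a kinase of B cells and myeloid cells, had the lowest p of the list, with 6.45 ± 3.02 CPM in control mice against 1.03 ± 0.63 CPM in aPU.1KO mice (log2 fold change -2.65, edgeR adjusted p = 0.0764). Chuk, a kinase of NF-kB activation, had the lowest p among those with a higher level, at a log2 fold change of 0.23 (edgeR adjusted p = 0.225), which was 0.14 without aPU.1KO mouse 2.

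Of the 11 brakes on the pathway, Tnip1, which restrains NF-kB with Tnfaip3, was called lower at an unadjusted p under 0.05. It had 48.9, 37.6 and 55.3 CPM in the control mice and 33.4, 27.8 and 31.1 CPM in the aPU.1KO mice, without overlap (log2 fold change -0.62, SE 0.15, edgeR adjusted p = 0.0856). Irak3, or IRAK-M, was at -0.10 (SE 0.12), and Socs1 at 0.78 with an SE of 0.47 (edgeR adjusted p = 0.339). The value of Socs1 was 0.36 without aPU.1KO mouse 2 and 1.18 without aPU.1KO mouse 3 (edgeR adjusted p = 0.665 and 0.0781), and that of Irak3 ran from -0.18 without control mouse 2 to -0.045 without aPU.1KO mouse 1.

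Among 12 transcription factors, Irf5, Irf8 and Nfkb2 were called lower and Irf3 higher at an unadjusted p under 0.05. Irf5, which acts downstream of Tlr7 and Tlr9, had 21.6, 5.56 and 20.7 CPM in the control mice and 2.80, 1.27 and 3.84 CPM in the aPU.1KO mice. The groups did not overlap (log2 fold change -2.61, SE 0.60, edgeR adjusted p = 0.0786, DESeq2 adjusted p = 0.000148). Irf8, a partner of PU.1 on DNA, had a log2 fold change of -0.82 (SE 0.20, edgeR adjusted p = 0.0865). Irf3, the factor downstream of Tlr3 and TRIF, had 27.2, 27.7 and 27.5 CPM in the control mice and 31.2, 36.3 and 32.5 CPM in the aPU.1KO mice. It was higher without overlap, by 0.28 on the log2 scale (SE 0.09, edgeR adjusted p = 0.113, DESeq2 adjusted p = 0.0739). Irf7, Nfkb1 and Rela had log2 fold changes of 0.22, -0.13 and 0.33 (edgeR adjusted p = 0.612, 0.410 and 0.287). Without aPU.1KO mouse 2 these were -0.020, -0.22 and 0.12, and without aPU.1KO mouse 3 Nfkb1 and Rela were at -0.086 and 0.49. Irf7 was at 0.36 without control mouse 1. Exons of Irf5 overlap those of Tnpo3 by 411 bases on the opposite strand, and those of Irf3 overlap Bcl2l12 by 88.

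For each receptor, the 2 genes with the most similar log2 CPM over the 6 libraries were found among 12846 genes. These are descriptions, since 6 libraries in 2 groups give high coefficients to many genes. Tlr13 was most like Mpeg1, the perforin-like gene of macrophages, and Itgax, or CD11c (Pearson's r = 0.9995 and 0.9994). Tlr7 was most like Rab8b and Plekho2, Tlr8 like Smc2 and Slc41a2, Tlr1 like Dpy19l1 and Clip2, Tlr6 like Rinl and Wdr91, and Tlr9 like Tpm3 and Fbln1. Tlr3 was most like Desi2 and Il33, an alarmin of stromal cells, and Tlr4 like Rasgrp4 and Pdcl. Tlr2 was most like Atg16l2 and Ube2l6, and Tlr5 like Gm6741 and Chst13. Over the 20 genes the coefficients lay between 0.9883 and 0.9995.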

How the data were processed

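RNA of the adipocyte fraction was measured in 6 libraries, 3 control and 3 aPU.1KO mice. The authors deposited estimated counts, made with Salmon and summed from transcripts to genes as whole numbers. The submitters' processing notes name Salmon, FastQC and GRCm38; the Salmon version and annotation are not given in the sources used here. The table lists 35122 Ensembl genes, of which 35102 were matched to a symbol (GENCODE M21, GRCm38) and the unmatched ones hold 0.00188% of counts. The receptors and the gene lists were chosen with earlier results of these data known.

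Group comparisons used the quasi-likelihood test of edgeR 4.0.16 in R 4.3.3 (glmQLFit, glmQLFTest) after filterByExpr and TMM scaling. The common biological coefficient of variation was 0.194. Total counts of 20550252 to 69283842 per library limit weak genes most, and 3 counts correspond to 0.0413 to 0.153 CPM. Replicates may share litters, in which case they are not independent and the p-values do not hold as given. Replicate libraries were no duplicates, since their counts differed well beyond sampling noise (the lowest chi-square per degree of freedom was 19.0). Ratios between genes were compared by two-sided exact permutation tests. On simulated data with 200 of 13925 genes altered, edgeR recovered 177 and made 12 false calls, and DESeq2 1.42.0 recovered 181 with 25 false calls. With none altered both made 0 calls. Those counts are totals for the simulated data, and recovery of changes in the receptors themselves was not tested. In the measured data some receptors varied widely among control mice, such as Tlr13 at 29.4, 4.90 and 25.7 CPM.

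The genes named are the members, Spi1, 19 pathway genes listed by name, the gene with the lowest p in each direction in each pathway list, any list gene with an adjusted p under 0.05, and the 2 genes most like each member. Other genes named were chosen after their values were seen. Alternatives were RLE and upper-quartile scaling, no filter or at least 10 counts in every library, DESeq2, limma-voom (limma 3.58.1), robust dispersion, legacy = FALSE, the deepest library thinned, each mouse left out, other forms of the macrophage list and lengths from the longest transcript. Protein sequences were not used here. Figures were drawn with matplotlib 3.10.9.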

Additional observations from a re-analysis of the deposited data

How the results depend on the processing

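All receptors kept a negative log2 fold change under every alternative in which they were tested, and Tlr1 and Tlr9 were not tested with at least 10 counts in every library. The count of members passing an adjusted p of 0.05 was 0 with edgeR, 6 with DESeq2 and 0 to 5 with a mouse left out, 5 being without control mouse 2. For the pathway genes the count was 0, with 14 by DESeq2 and 0 to 13 with a mouse left out, 13 being without control mouse 2. The count of pathway genes higher at an unadjusted p under 0.05 was 1, with 2 by DESeq2 and 0 to 12 with a mouse left out, 12 being without aPU.1KO mouse 3. The 3 receptors higher relative to the macrophage markers became 5 without control mouse 2 or without aPU.1KO mouse 1, the range being 3 to 5. The level of Tlr4 in control mice was 5.43 CPM per kilobase over all exons and 7.40 over the longest transcript. Over the longest transcript Tlr5 (2.64) was above Tlr7 (2.41) in control mice, the reverse of their order over all exons. Over all genes edgeR called 33, with 146 without a filter, 5 with at least 10 counts in every library, 1869 by DESeq2, and 0 to 1193 with a mouse left out, 1193 being without control mouse 2. The cause of these differences was not tested.

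The log2 fold change of Ly96 changed sign to 0.027 with the deepest library thinned and ran from -0.30 to 0.21 with a mouse left out. With a mouse left out, that of Irak2 ran from -0.15 to 0.11, of Irf7 from -0.020 to 0.36, of Hsp90b1 from -0.028 to 0.10, of Tnfaip3 from -0.17 to 1.57 and of Nfkbia from -0.10 to 1.05. For single genes, 667 values kept direction and side of the threshold, 40 kept direction and passed it, and 11 changed sign. Adjusted p-values over the alternatives ran from 0.000106 to 0.313 for Tlr7, from 0.000146 to 0.313 for Tlr1, from 0.00151 to 0.342 for Tlr8, from 0.00866 to 0.367 for Tlr6, from 0.0148 to 0.338 for Tlr13 and from 0.0306 to 0.399 for Tlr9. Depth limits Tlr9 and Tlr1 most, with 8 to 18 counts in the aPU.1KO libraries.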

Other observations

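The values here were chosen after they were seen. aPU.1KO mouse 2, which had the highest Tlr2 of the 6 mice, also had the highest level of 6 genes picked from the lists of brakes, adaptors and transcription factors. From the same lists, Fos, Rela, Zc3h12a, Dusp1, Irf7, Irf3 and Sigirr were highest in that mouse as well. The other tested genes of those lists were not highest in it. Tnip1 was the lowest of all 6 mice at 27.8 CPM, and Nfkb2, at 29.2 CPM, was below every control mouse. Tnfaip3, or A20, was at 238.7 CPM in that mouse, against 74.6 and 20.0 CPM in aPU.1KO mice 1 and 3 and 37.3 to 65.5 CPM in the control mice. Nfkbia, the inhibitor of NF-kB, was at 222.8 CPM, against 95.6 and 49.0 CPM in aPU.1KO mice 1 and 3. Atf3 was at 316.9 CPM, against 219.6 and 59.5 CPM in aPU.1KO mice 1 and 3 and 114.8 to 139.5 CPM in the control mice. Jun was at 1012 CPM, against 669.8 and 414.1 CPM in aPU.1KO mice 1 and 3 and 437.8 to 505.7 CPM in the control mice. Myd88 and Socs1 were also highest in that mouse, at 48.0 and 5.29 CPM. aPU.1KO mouse 1 was also above every control mouse in these 6 genes, by less than mouse 2. aPU.1KO mouse 2 was lowest in Tlr3, Tlr4, Tlr5, Tlr7, Tlr8, Tlr9 and Tlr13, and in the summed macrophage markers at 259.5 CPM. Tlr1, Tlr2 and Tlr6 were not lowest in that mouse. In aPU.1KO mouse 3, Tnfaip3, Nfkbia, Atf3, Jun, Myd88 and Socs1 were the lowest of all 6 mice.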
